A study of Mus musculus with 12 samples.

Results

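The imprinted domain of Peg13, Trappc9 and Kcnk9 on mouse chromosome 15 was examined CpG by CpG in the left ventricle of 12 weanling mice. Its members were taken by position: every CpG row of the deposited methylation table inside or within 5 kb of these 3 genes, rows with missing values included. This gave 92 rows of 421177 in the table. The domain was chosen by its difference in methylation between the maternal diets, seen at CpGs of Peg13 in an earlier pass over the same table, so diet differences are given here as descriptions. The only diet tests shown are counts of single-site calls from a fit across the whole table, and nothing is read from those of the domain. The 13 rows inside Peg13, at positions 72809880 to 72810097 of chromosome 15 (mm10, GRCm38), are called the core.

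An imprinted gene is read mainly from the copy inherited from 1 parent, and the memory of that parent is held in a differentially methylated region, a stretch of CpGs that carries methylation on the maternal or the paternal copy only. Peg13 is a long non-coding RNA transcribed from within an intron of Trappc9. Its promoter region is such a stretch, methylated on the maternal copy, and the unmethylated paternal copy makes the RNA. Trappc9 encodes a subunit of a complex that tethers vesicles in membrane traffic, and Kcnk9 encodes a potassium leak channel. In the brain both are read preferentially from the maternal copy, under the influence of the Peg13 region. Reads were not assigned to parental copies in these data, so a level is a mixture of both copies and of all cells of the ventricle.

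The mice were FVB/N offspring sampled at 3 weeks of age, at weaning. Their mothers, FVB/NJ, received a high-fat diet (HFD, 6 offspring: 3 females and 3 males) or a regular diet (RD, 6 offspring: 4 females and 2 males) from 6 weeks of age, were mated after 8 weeks on that diet to males fed RD, and stayed on it through pregnancy and nursing. All mice were wild type. The labels do not tie offspring to individual mothers, so littermates may be among them and p-values measure the spread between these mice only. Methylation was measured by reduced representation bisulfite sequencing, in which the enzyme MspI selects short CpG-rich fragments and bisulfite distinguishes methylated from unmethylated cytosines. A level is the percentage of reads that were methylated at a CpG, and the number of reads behind it is unknown.

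A few facts of the whole series bear on the domain. Library numbers ran from 2 to 8 in HFD and from 9 to 14 in RD, so library order and diet cannot be told apart. At the 60636 autosomal CpGs with a mean level of 20 to 80%, the mean was 55.6% ± 0.289 in HFD and 56.6% ± 0.663 in RD (SD, n = 6 each). For the tissue label only methylation at gene ends was at hand. Of 8 cardiomyocyte genes 4 had measured ends, with a mean level of 28.7 to 33.7% in HFD and 29.5 to 33.4% in RD. Over all mice the 4 were unlike, with 2.29% at Ryr2, 6.51% at Actn2, 48.3% at Tnnt2 and 69.2% at Myh6. The measured end of Myh6 is shared with Cmtm5. Of 5 endothelial genes only Esam, an endothelial adhesion molecule, was measured, at 15.2 to 25.2% in HFD and 28.6 to 38.9% in RD. Of 3 neuronal genes only Tubb3, sharing its end with Mc1r, was measured, at 0 to 3.45% in HFD and 0 to 3.17% in RD. No fibroblast or leukocyte gene of the lists was measured. Since Ryr2 and Tubb3 were both low, these levels do not check the tissue label. The part of the cell makeup in the results below was not tested.

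The 92 rows covered the genes very unevenly. Peg13 (72805602 to 72810324) held the 13 core rows, 227 to 444 bp inside its higher-coordinate end. Another 4 rows lay just outside it, 3 of them 405 to 478 bp below its lower end and 1 of them 216 bp beyond its higher end, and these are called the Peg13 flank. Trappc9 (72589620 to 73061238) spans 471619 bp and had 49 further rows in its body and 5 rows 103 to 142 bp from its higher-coordinate end. The longest distance between neighbouring rows of its body was 91682 bp. All 21 rows of Kcnk9 (72501873 to 72548614) lay 1049 to 1685 bp inside its higher-coordinate end, and no row fell elsewhere in this gene. No row lay in the 5 kb beyond either end of Trappc9 or Kcnk9. The nearest rows left out began 6573 bp beyond the higher end of Trappc9. All 13 core rows had values in 12 mice, while 13 of the other 79 rows lacked at least 1 value. Of the 19 missing values, 8 were those of HFD male 2.

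Levels of methylation differed widely along the domain. The Peg13 core averaged 70.6% ± 11.9 over the 12 mice (SD), far above the nearly unmethylated rows at the end of Trappc9 and in Kcnk9. The rows at the end of Trappc9 averaged 0.928% ± 0.556 and those of Kcnk9 3.81% ± 1.047 (SD, n = 12 each). The body of Trappc9 averaged 79.6% ± 1.56 (SD, n = 12). Individual rows of Kcnk9 averaged from 0.794 to 7.34%, and 35 of the 49 body rows of Trappc9 lay above 80%.

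**Figure D1:**
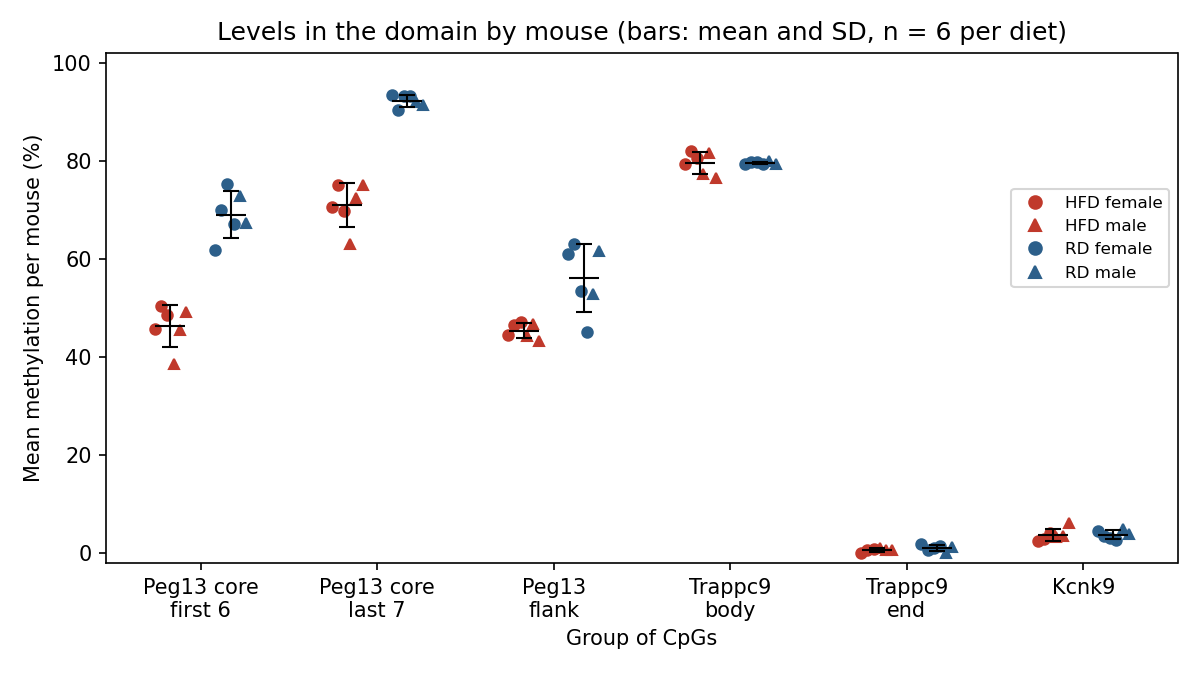
Mean methylation per mouse (%, vertical axis) in 6 groups of CpGs (horizontal axis), with 6 HFD mice in red and 6 RD mice in blue, circles for females, triangles for males, and bars for mean and SD. The diets are apart in both clusters of the Peg13 core, overlap in the Peg13 flank, and overlap in the body of Trappc9, its end and Kcnk9.

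The core was compared with the other parts within each mouse, by an exact permutation test that flips the sign of each mouse's difference (two-sided, 4096 arrangements). The domain was chosen for the difference between diets and not for these levels, although the core's levels in HFD and RD enter both. The core lay 18.0 ± 11.3 points (SD) above the mean of the 75 rows of Trappc9 and Kcnk9, and it was higher in 12 of 12 mice (exact permutation p = 0.000488, adjusted over 6 comparisons 0.000586). By diet, the difference was 7.52 ± 3.41 points in HFD and 28.5 ± 2.21 points in RD (SD, n = 6 each). The 75 rows averaged 52.1% in HFD and 53.1% in RD, so the gap between these differences repeats the diet contrast of the core. With medians over the rows in place of means it came to 6.98 points, and the core was then lower than the rest in 4 of 6 HFD mice (HFD mean -1.62 points) and higher in 6 of 6 RD mice (15.6 points). It lay 66.8 ± 11.9 points above Kcnk9 and 69.7 ± 11.8 points above the end of Trappc9, again in 12 of 12 mice, with the same p in this exact test. That is the smallest p this number of mice allows. Kcnk9 and the end of Trappc9 were nearly unmethylated in every mouse, so the sign against them was set beforehand. Nothing is read from the p against them. Since the 75 rows ranged from nearly 0 to nearly full methylation, their mean depends on how many rows each gene contributed, and the test against them holds for means over this mixture only.

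Set against the body of Trappc9, the core differed by -9.02 ± 11.8 points (SD), and the mice did not behave alike. Because the body had the same mean in both diets, this difference by diet repeats the diet contrast of the core. Its test was among the 6 comparisons of the adjustment above, and nothing is read from it. In HFD the core was below the body in 6 of 6 mice, by -13.3 to -25.5 points. In RD it was above the body in 5 of 6 mice, with a mean difference of 1.94 ± 2.06 points (SD). In RD mice the core and the surrounding gene body were thus within 5.29 points of each other in every mouse.

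The core itself fell into 2 clusters of CpGs separated by 93 bp. The first cluster comprised 6 rows at 72809880 to 72809945 and the second 7 rows at 72810038 to 72810097. The second cluster was higher than the first in all 12 mice, by 23.9 ± 3.77 points (SD, exact permutation test by sign flips, p = 0.000488). The step was 24.7 ± 1.91 points in HFD and 23.2 ± 5.14 points in RD (SD, n = 6 each). Inside a cluster the CpGs of a mouse were close together. The highest and the lowest row of the first cluster differed by 2.46 to 7.68 points within a mouse, and those of the second by 3.35 to 11.4 points. Neighbouring CpGs of a cluster can share reads, so these rows are not separate measurements.

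**Figure D2:**
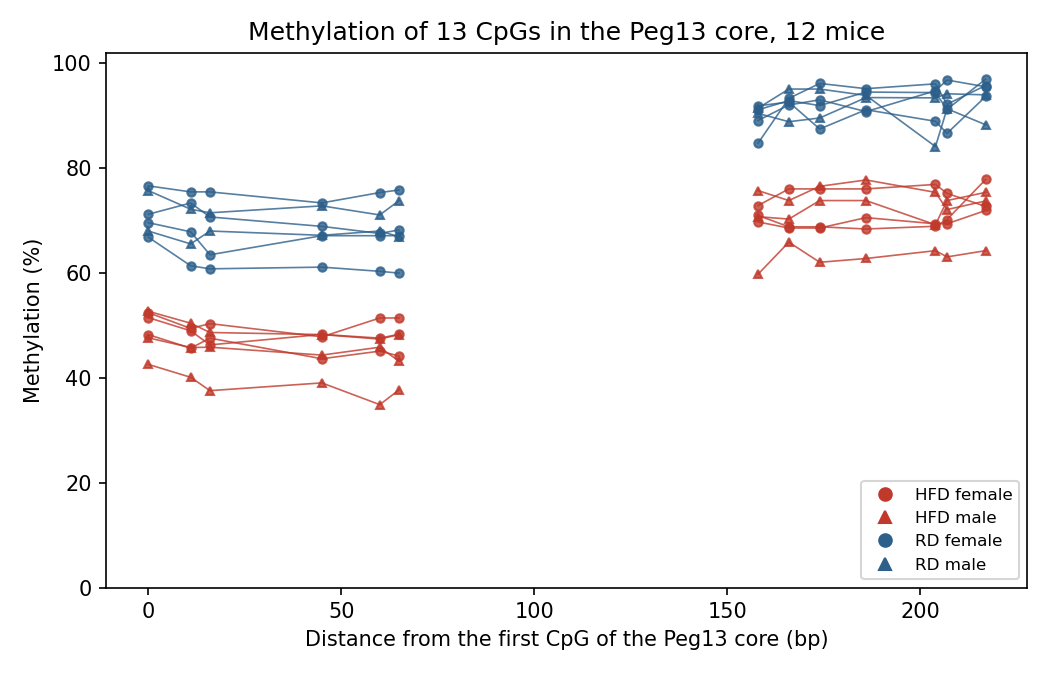
Methylation (%, vertical axis) of the 13 CpGs of the Peg13 core against distance from the first of them (bp, horizontal axis), 1 line per mouse and cluster, HFD in red and RD in blue, circles for females and triangles for males. The step of 23.9 points between the clusters runs through mice of both diets, and the red lines lie below the blue lines in each cluster.

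The values that singled out the domain were these, given as a description. In the first cluster the HFD mice had a lowest level of 38.7%, a median of 47.1% and a highest level of 50.5%. The RD mice had 61.8, 68.7 and 75.4%. The lowest RD mouse, RD female 1, was thus 11.3 points above the highest HFD mouse, HFD female 3.

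In the second cluster the HFD mice had a lowest level of 63.2%, a median of 71.5% and a highest level of 75.1%, against 90.4, 92.6 and 93.4% in RD. HFD male 2 was the lowest mouse in both clusters. The difference between the diets was -22.7 points in the first cluster and -21.2 points in the second. Over the whole core HFD averaged 59.6% ± 4.25 and RD 81.6% ± 2.22 (SD, n = 6 each). Both means are above what methylation of 1 copy only could give if both copies were read equally. These data do not show on which copy the core was methylated.

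Row by row, the difference ran from -19.8 points at 72810038 to -23.2 points at 72809925. The level at 72809925 was 45.3% ± 3.66 in HFD and 68.4% ± 4.48 in RD, and at 72810038 it was 70.0% ± 5.44 and 89.8% ± 2.66 (SD, n = 6 each). At the row with the lowest coordinate, 72809880, the levels were 49.2% ± 3.88 and 71.4% ± 4.04, and at the row with the highest, 72810097, 72.7% ± 4.62 and 94.1% ± 3.07 (SD, n = 6 each). Every core row was lower in HFD without overlap of the diets (13 of 13), which was so at 0.335% of the 157524 sites tested. Since the rule for the core used this contrast, nothing is read from that count.

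The fit across all sites (limma, with diet and sex as terms, on a log2 ratio of methylated to unmethylated rates) took autosomal sites with 12 values and a mean level of 5 to 95%, which left 47 of the 92 rows: 13 of the core, 2 of the flank, 27 of the body of Trappc9 and 5 of Kcnk9. At an adjusted p under 0.05 it called 3 of them between the diets, all in the second cluster of the core, lower in HFD. Over all sites 0.0102% were called in either direction and 0.00825% as lower in HFD. Since these are the sites and the contrast of the choice, nothing is read from the count. Leaving out 1 mouse at a time brought it to 0 in 10 of 12 fits, and it was 1 without HFD female 3 and 3 without RD female 4. The same fits called 0 to 23 sites in the whole table, with 0 in 5 of them, while the median core coefficient stayed between -1.64 and -1.44 on the log2 ratio scale.

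The flank rows lie at both ends of Peg13, 3 of them at -4756 to -4683 bp and 1 of them at 660 bp from the first row of the core. The 4 rows averaged 45.4% ± 1.60 in HFD and 56.2% ± 6.94 in RD (SD, n = 6 each), and the diets overlapped in every row and in the mean. The HFD mice ran from 43.3 to 47.2%, while the RD mice spread from 45.1 to 63.1%. The differences at 72805124, 72805145 and 72805197, below Peg13, were -1.62, -9.70 and -15.8 points, and that at 72810540, beyond its higher end, was -15.7 points. RD female 2 had no value at 72805197 and HFD male 4 had none at 72810540. Levels at 72805197 were 42.3% ± 8.88 in 6 HFD mice and 58.1% ± 9.32 in 5 RD mice, and at 72810540 39.6% ± 6.47 in 5 HFD mice and 55.3% ± 9.13 in 6 RD mice (SD). The core lay 14.2 ± 4.20 points above the flank in HFD and 25.4 ± 8.19 points above it in RD (SD, n = 6 each), given as a description because the flank was set apart with its values known. This comparison too was among the 6 of the adjustment, and nothing is read from its test.

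The body of Trappc9, which surrounds Peg13 on both sides, had practically the same mean in both diets. It was 79.62% ± 2.30 in HFD and 79.62% ± 0.215 in RD (SD, n = 6 each). HFD mice ran from 76.5 to 82.0% and RD mice from 79.4 to 79.9%, so all RD values fell inside the HFD range. Of the 17 values missing among these rows, 16 were in HFD mice. On the 38 body rows with 12 values the levels were 79.5% ± 2.0 and 79.9% ± 0.455 (SD, n = 6 each). Row by row, 26 of the 49 body rows lay below RD in the HFD mice and 23 above. The median row difference was -0.52 points. Over the 27 body rows with 12 values and a mean level of 5 to 95% it was -0.77 points, beside -0.26 points over the 157524 sites of the table that met the same limits. No body row separated the diets, where 0.364% of all autosomal sites with 12 values did so in either direction.

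**Figure D3:**
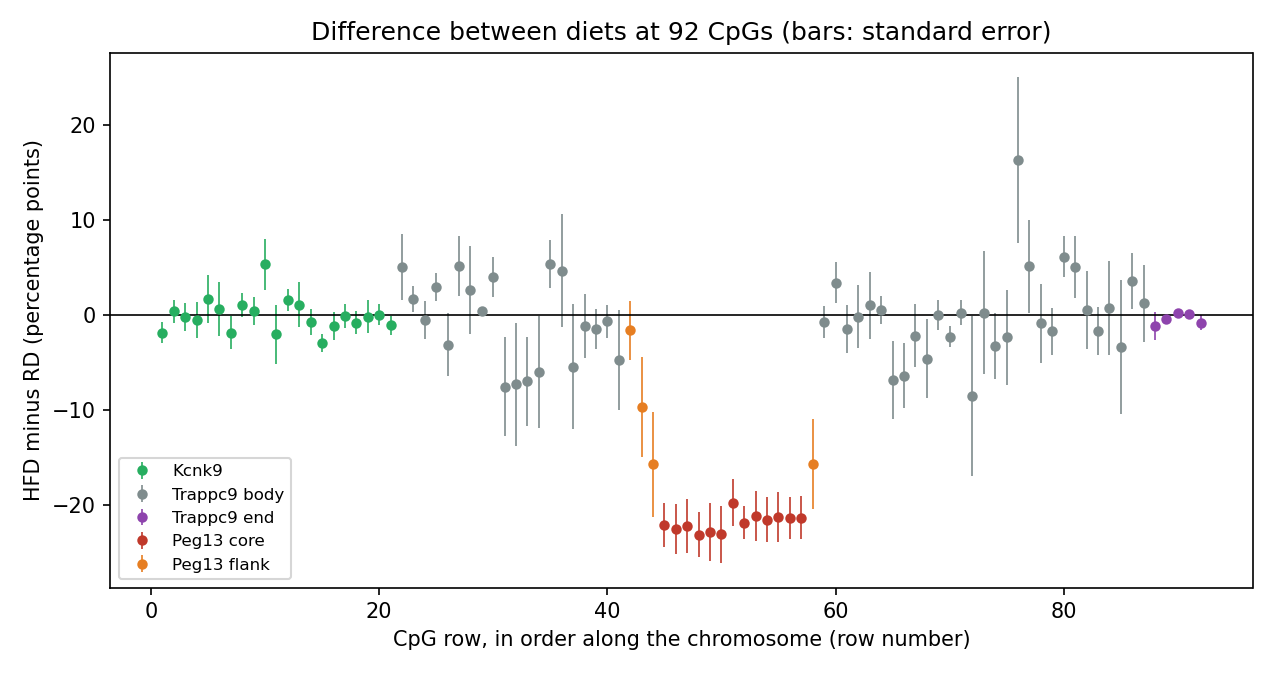
HFD minus RD (percentage points, vertical axis, bars for the standard error) at the 92 CpG rows in their order along the chromosome (horizontal axis), coloured by group. The 13 core rows lie between -19.8 and -23.2 points, the 4 flank rows between -1.62 and -15.8, and the other 75 rows on both sides of 0.

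The greatest positive difference, 16.3 points, was at 72972244, which also lies in the predicted gene Gm31665. HFD mice had 30.0% ± 16.3 (SD, n = 4, HFD female 3 and HFD male 2 missing) and RD mice 13.7% ± 7.61 (SD, n = 6). Next were 73011482, with 90.9% ± 3.85 in HFD and 84.8% ± 3.63 in RD, and 72751189, with 94.4% ± 4.15 in 4 HFD mice and 89.0% ± 3.50 in 6 RD mice (SD). Among the 75 rows outside the core and the flank, the most negative differences were -8.57 points at 72908701, -7.55 points at 72739097 and -7.32 points at 72739108. At 72908701 the levels were 67.2% ± 19.6 in HFD and 75.8% ± 6.48 in RD (SD, n = 6 each), HFD male 4 being the lowest mouse with 30.0%. The diets overlapped at all 6 of these rows. Some HFD values were round, as at 72972244 with 10, 30, 50 and 30%. Few reads can give such values, but the depth is unknown.

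Not all of the gene body was highly methylated. Of its 49 rows, 11 averaged 20 to 80%. The following rows were picked with their values known. The 4 rows from 72908701 to 72908879 averaged 71.5, 56.0, 56.1 and 38.3%. The 3 rows from 73044517 to 73044816 averaged 37.2, 16.4 and 6.35%. In both stretches the row with the lowest coordinate had the highest level and the row with the highest coordinate the lowest. The diet differences there were -8.57, 0.230, -3.28 and -2.38 points in the first stretch and 0.764, -3.34 and 3.55 points in the other, all nearer to 0 than any difference of the core. This contrast between rows was not tested.

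The end of Trappc9 and the rows of Kcnk9 were low in every mouse. At the Trappc9 end HFD mice ran from 0.147 to 1.14% and RD mice from 0 to 1.98%. At Kcnk9 the HFD mice ran from 2.49 to 6.14% and the RD mice from 2.81 to 5.02%, and both groups had nearly the same mean, 3.78% ± 1.28 and 3.84% ± 0.874 (SD, n = 6 each). HFD male 4, with 6.14%, was the highest. Of the 21 Kcnk9 rows, 12 were lower and 9 higher in HFD, the extremes being -2.96 and 5.34 points. Over all 75 rows of Trappc9 and Kcnk9 outside the Peg13 region, the difference between the diets was -0.99 points, or -0.31 points on the 64 rows with 12 values. Without 1 mouse at a time it was -0.257 to -1.38 points. Among the 75 rows 0 separated the diets, where over all sites without a limit on the level 0.192% did so with HFD lower and 0.364% in either direction.

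Mice of 1 diet differed from each other by an amount that depended on the part of the domain. In the core the SD between mice within a diet was 3.01 to 5.28 points, with a median of 4.28 points. It was 5.44 to 9.20 points in the 4 flank rows, with a median of 8.57, and 0.725 to 14.6 points in the body of Trappc9, with a median of 5.93. Among all 60636 autosomal sites with a mean level of 20 to 80% the median was 8.06 points, and among those over 80%, which is the class of 6 of the 13 core rows and 35 of the 49 body rows, it was 4.51 points. The core was chosen on diets that lie apart, which favours rows of low spread, so its spread is a description only. The spread contains counting noise of unknown size, because the depth of each row is unknown.

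**Figure D4:**
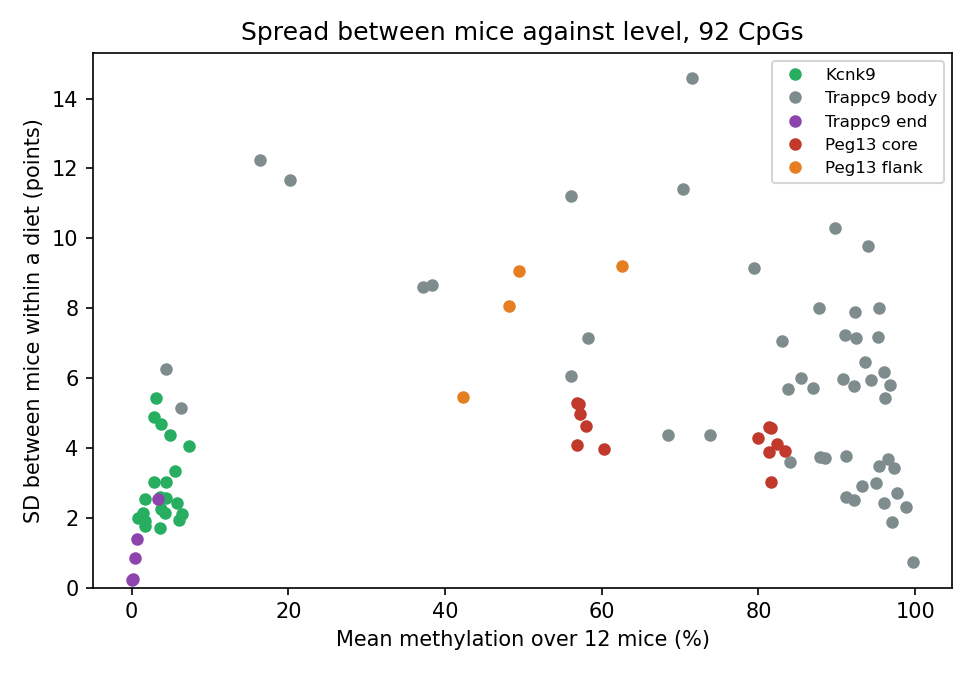
SD between mice within a diet (points, vertical axis) against mean methylation over 12 mice (%, horizontal axis) for the 92 CpG rows, coloured by group. Core rows have SDs of 3.01 to 5.28 points, whereas the rows of the body of Trappc9 extend to 14.6 points.

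Whether mice that were high in 1 part were high in another was asked within each diet, over 6 mice at a time, because the diets formed separate clusters of values. The 6 relations computed were picked with the values already known. Between the first and the second cluster of the core, Pearson's r was 0.90 in HFD (exact permutation p = 0.0264, adjusted 0.158) with Spearman's rho of 0.77 (exact permutation p = 0.103, adjusted 0.308). Without HFD male 2 and HFD female 3, the 2 mice farthest from the median, r was 0.34, so the relation rests on those mice. In RD, r was -0.14 (exact permutation p = 0.801) and rho -0.26 (exact permutation p = 0.658). Relations of the core with the flank and with the body of Trappc9, over rows with 12 values, passed the threshold in neither diet. In HFD and RD, r was 0.50 and -0.60 with the flank and 0.53 and -0.52 with the body, and each adjusted exact permutation p was 0.343.

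The sexes were compared next, a contrast that the choice of the domain did not use. HFD females had 61.0% ± 2.47 and HFD males 58.3% ± 5.83 in the core (SD, n = 3 each). RD females had 81.5% ± 2.60 (SD, n = 4) and RD males 81.7% ± 2.07 (SD, n = 2). Over both diets females were 4.99 points higher than males, a value that includes the larger share of RD mice among the females. It ranged from 1.03 points without HFD male 2 to 8.86 points without RD male 1, and was 0.38 points in the fit with diet and the replicate block. With sex labels moved within diets, the exact permutation test gave p = 0.307 (300 arrangements, smallest possible p 0.00333), and 0.44 when adjusted over 8 groups of rows. It counted differences of this size in either direction. The larger RD share among females stays in every arrangement, so the rearranged core differences centre on higher females. For the core this p is therefore not evenly two-sided, and the test could hardly detect higher males. The smallest p of the 8 was that of Kcnk9, with 3.38% ± 0.772 in 7 females and 4.41% ± 1.17 in 5 males (SD, exact permutation p = 0.107, adjusted 0.44).

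At single sites 0 of the 47 tested rows differed between the sexes at an adjusted p under 0.05 with limma, as did 0.0% of all sites. At an unadjusted p under 0.05 there were 2, beside 5.3% of all sites. They were 72880867, with 95.2% ± 4.32 in females and 88.0% ± 4.26 in males, and 72758835, with 91.6% ± 5.86 and 98.2% ± 2.48 (SD, n = 7 and 5, limma adjusted p = 0.917 and 0.923). Both are in the body of Trappc9 and their differences have opposite signs. The third in order, 72908701, had 77.5% ± 5.64 in females and 63.0% ± 19.6 in males (SD, n = 7 and 5, limma adjusted p = 0.950).

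The difference between the diets in the core was -20.5 points among females and -23.4 points among males. Whether these differed was tested as an interaction across 4170 windows of 1 kb on each side of gene ends with limma. In the window of Peg13, which holds the 13 core rows, the interaction was 0.15 on the log2 ratio scale (limma adjusted p = 0.982), and 0.0% of windows were called. Its sign rested on 1 mouse: without HFD male 2 it was -0.0197 (limma adjusted p = 0.996). With the replicate block it was 0.30. The main effect of sex in this window was 0.07 (limma adjusted p = 0.989), with 0.0959% of windows called. Among the 47 single rows limma called 0 for the interaction, as it did 0.0% of all sites. The unadjusted p was under 0.05 at 2 of them, beside 5.11% of all sites.

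Further genes of the same stretch of chromosome were Col22a1, which encodes a collagen, Chrac1, a histone-fold subunit of chromatin complexes, Ago2, the slicer of RNA interference, and Ptk2, the focal adhesion kinase. Together they had 99 rows inside or within 5 kb, 74 of them at Ago2, 22 at Chrac1, 7 at Col22a1 and 0 at Ptk2, some rows being shared by Chrac1 and Ago2. Their rows were mostly near 0, with a median level of 1.22%. The median difference between the diets was 0.538 points over the 99 rows, with extremes of -9.35 and 9.07 points, and no row separated the diets, beside 0.364% of all sites. Of the 18 rows that could be tested with limma, 0 were called between the diets and 1 had an unadjusted p under 0.05, beside 6.53% of all sites.

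Among other gene ends, the 5 windows whose levels followed those of the Peg13 window most closely over the 12 mice were sought among 4169. They were the windows of Zrsr1, an imprinted splicing factor retrogene (r = 0.93), Esam (r = 0.91), Gm9198 (r = 0.87), Gm13816 (r = 0.84) and Fes, a tyrosine kinase (r = 0.84). All 5 were lower in HFD, by -14.8, -15.4, -2.93, -11.5 and -5.22 points. These correlations share the same 12 libraries and contain the separation of the diets. After each diet's mean had been removed, r was 0.24, 0.29, 0.38, -0.19 and 0.19 in the same order. For Esam, the only endothelial marker with a measured end, HFD had 19.5% ± 3.82 and RD 34.99% ± 3.61 (SD, n = 6 each), and its part in the Peg13 difference was not tested.

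Imprinted windows set beside Peg13 in the same mice were those of Zrsr1, of Plagl1, a zinc finger growth regulator, sharing its window with Hymai, and of Peg10, a retrotransposon-derived gene sharing its window with Sgce. HFD and RD averaged 59.1% ± 3.04 and 73.9% ± 2.39 at Zrsr1, 51.8% ± 3.94 and 67.2% ± 5.44 at Plagl1, and 56.9% ± 5.59 and 69.5% ± 5.31 at Peg10 (SD, n = 6 each). In RD mice the mean level of the Peg13 window, 81.6%, was above each of the 3, whereas in HFD mice its mean, 59.6%, lay next to that of Zrsr1. These differences between windows were not tested. The 3 windows were picked as the imprinted ones most like that of Peg13, so they do not stand for imprinted windows in general.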

How the data were processed

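Methylation was taken from a single table deposited by the authors, with CpGs as rows and the 12 mice as columns, in percent methylated. FastQC, Trim Galore, Bismark 0.19 and limma, and the build mm10, are named per the submitters' processing notes; the coverage minimum, strand handling and filter on missing values are not given in the sources used here. No read counts accompany the percentages, so rates were tested, the depth is unknown and no interval for counting error could be given; errors are spreads between mice.

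Gene positions came from NCBI RefSeq (GRCm38.p6). Rates as fractions were turned into log2((rate + 0.05)/(1 - rate + 0.05)) and fitted with limma 3.58.1 (R 4.3.3; lmFit, eBayes) with diet and sex, or 4 group means for the interaction, over autosomal sites with 12 values and mean rates of 5 to 95% (157524), or windows of 1000 bp on each side of gene ends with at least 3 sites (4170). Benjamini-Hochberg adjustment ran over all features tested. Levels were compared with exact permutation tests. Fits were tested on simulated data. The members, lists and tests were chosen with earlier results of these data known. Named were all core rows, of the rest the 3 rows with the largest diet difference in each direction and the 3 with the smallest sex p-value, 4 neighbouring genes, 3 imprinted windows and the 5 windows most correlated with Peg13. The flank rows, the 2 stretches of intermediate level in Trappc9 and the row at 73068224 fall outside this rule and were chosen after their values were seen. Marker lists were cardiomyocyte, endothelial, fibroblast, leukocyte and neuron. Alternatives covered offset, transformation, rate limits, missing values, variance moderation, model terms, region definitions, and each mouse left out. Figures were drawn with matplotlib 3.10.9.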

Additional observations from a re-analysis of the deposited data

Results flagged for a closer look

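Within each diet, the highest and lowest mouse at each row of Peg13, its flank and the named rows of Trappc9, and in the means of the groups of rows, were compared with the others by Dixon's criterion at the 95% level, which relates the gap to the nearest mouse to the range of the diet. Chance alone meets it in about 1 group in 20, or 3.3 of the 66 groups looked at, and 3 met it. HFD male 2 had 37.6% at 72809896, in the first cluster of the core, while the other HFD mice had 45.9 to 50.4%. The same mouse had 59.8% at 72810038, in the second cluster, while the others had 69.8 to 75.8%. HFD female 3 had 68.0% at the flank row 72805145, above the 54.5 to 56.2% of the others.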

How the results depend on the processing

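The diet call count of the domain was the result that moved most. Against 3 rows called with limma (16 in the whole table), 13 were called on untransformed rates (78 in the table), 6 without a limit on the mean rate (39), 4 at mean rates of 20 to 80% (54), 7 with trend and robust variances (31), 7 without the sex term (27), 0 with missing values allowed (1) and 0 with the replicate block (0). All calls in the domain were core rows. The cause was not tested. Leaving out 1 mouse gave 0 to 3 (0 to 23 in the table). Counts of domain rows for sex and for the interaction were 0 in every fit run, leaving-out fits included (0 to 0). In the whole table those fits called 0 sites too, except 1 for sex without HFD male 2 and 35 for the interaction when sites of any mean rate entered. The mean of the core over 12 mice was above the rest by 6.98 to 22.0 points in the alternatives, and by 16.7 to 19.3 points without 1 mouse. The lowest value was that for medians in place of means (exact permutation p = 0.0371), where 4 of 6 HFD mice turned to a lower core. The core difference between the diets was -19.0 to -23.0 points over the alternatives and -20.4 to -22.7 points without 1 mouse, and that of the rest -0.31 to -1.76 and -0.257 to -1.38 points. The female minus male difference of the core was 1.03 to 8.86 points without 1 mouse, highest exact permutation p 0.647. The interaction changed sign without HFD male 2, to -0.0197 on the log2 ratio scale (limma adjusted p = 0.996), and was at most 0.283 without another mouse. With the replicate block the core differed by -23.0 points between the diets and by 0.38 points between the sexes. No pairing by replicate number was seen. Deviations from group means of same-numbered mice correlated at -0.0667 to 0.0113 over 13 pairs, and 0 of 12 mice correlated best with their own number. Mice with different numbers correlated at -0.0771 to 0.0953 over 40 pairs. No mice known to share a litter or batch were at hand, so it is unknown whether this check could see a pairing. Averaging both cytosines of a CpG and dropping the 5 kb flanks left the values of the domain as they were, since no row was affected. No coverage minimum could be varied, as coverage is unknown.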

Other observations

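The spread between mice went in different directions in the parts of the domain. The SD of the 6 mice was larger in HFD than in RD in the second cluster of the Peg13 core (4.44 against 1.24 points), but not in the first (4.26 against 4.81 points). It was larger in HFD in the 38 complete rows of the body of Trappc9 (2.0 against 0.455 points), and smaller in the Peg13 flank, with 3.48 against 7.81 points on its 2 complete rows and 1.60 against 6.94 points on all 4. No test of these spreads was run. Of the 21 Kcnk9 rows 17 had a lower mean in females than in males, with a median difference of -1.14 points, at levels of a few percent. The sex coefficient (limma, no limit on the mean rate) was also lower in females at 55.2% of all sites and at 75.3% of the 81 rows tested near the neighbouring genes. Beyond the domain, the row at 73068224, which is 6986 bp past the higher-coordinate end of Trappc9, averaged 24.0%, with 29.7% in HFD and 19.3% in RD, between rows near 0 and rows at 7.37 and 10.7%.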
